A study of Ovis aries with 30 samples.

Results

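The fat that lies on the heart under the pericardium, epicardial adipose tissue, was sampled from sheep, and 5 of its transcripts are described here: lactotransferrin (LTF), the cathelicidins BAC5, CATHL1B and CATHL3, and lysozyme (LYZ). The genes were chosen with earlier results of these data known, among them the change of LTF in lambs. Their probes were taken by name, as every probe that the array's annotation gives for them. They were 5 of the 1025 named genes on the array and 8 of its 15008 probes. All 8 probes passed the filter on dim signal. The groups were 8 Control fetuses at term from untreated ewes, 6 CORT fetuses at term whose ewes were given cortisol at 1 mg/kg/day, 7 Control lambs aged 2 weeks from untreated ewes, and 9 CORT lambs of that age whose ewes had been given 0.5 mg/kg/day while pregnant. Infusion began on gestational day 115, the ewe and not the offspring was infused, and in the lamb cohort the study's methods give an infusion on part of each day. Fetuses and lambs were thus exposed to 2 different doses, and setting their cortisol effects against each other compares exposures as well as ages. The study's methods mention twins among the lambs, and the labels do not say which or whether both of a pair were arrayed, so all animals were treated as independent.

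Lactotransferrin is an iron-binding glycoprotein of milk, of other secretions and of the secondary granules of neutrophils, where it withholds iron from bacteria. Cathelicidins are stored in the granules of ruminant neutrophils as precursors and are cleaved to antimicrobial peptides on release. Neutrophil precursors transcribe these granule genes in the marrow and circulating neutrophils largely do not. Lysozyme, which cleaves bacterial cell walls, is made by neutrophils and also by monocytes and macrophages. LTF, the cathelicidins and LYZ are thus all granule transcripts of the neutrophil line, though LTF and LYZ are also made elsewhere. The study's paper cites work in which adipocytes make lactotransferrin. Which cells gave the LTF signal in this fat was not tested. The question asked was whether LTF moved with the other granule transcripts across the 4 groups.

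Each gene was read by probes of 60 bases. LTF and CATHL3 had 1 probe each, and BAC5, CATHL1B and LYZ had 2. In the deposited annotation the CATHL1B probes carry the name DODE and the CATHL3 probe the name BAC7.5, and their current symbols come from the RefSeq gene table. The array's annotation gives no genome position for them and only the first base of each probe on its transcript record, a number used below to tell the probes of a gene apart. The probes of BAC5 shared 59 bases, as did those of CATHL1B, and those of LYZ shared 40, so that a pair of probes is not independent evidence of its gene. The LTF probe starts at base 2031 of its record and the LYZ probe used to represent the gene at base 367. Their sequences are given because these 2 probes carry the contrast with the cathelicidins:
LTF 2031: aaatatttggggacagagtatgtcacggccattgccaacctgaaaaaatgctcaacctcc
LYZ 367: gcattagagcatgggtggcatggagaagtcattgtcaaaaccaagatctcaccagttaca

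A window of 30 bases from a probe of each cathelicidin is shown because cathelicidin genes are close relatives and their probes could have read one another's RNA. The letters AATAAA, the sequence of the usual polyadenylation signal, are in capitals:
BAC5 563: agtcagcatccaaaaAATAAAatcttgtgg
CATHL1B 510: ctggatctgaaaAATAAActcttgtgacat
CATHL3 748: tggacggtgaaaAATAAAttctggtgaaga
SC5 513: tggactctgagaAATAAAttcttgtgagaa

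The last of these is SC5, a further cathelicidin on the array that is not among the 5 genes. The 5 probes of BAC5, CATHL1B and CATHL3 and that of SC5 held AATAAA on the printed strand, against 5.63% of all probes of the array, and the LTF and LYZ probes did not. Outside these letters the windows differ but also share bases, most plainly those of CATHL3 and SC5. The longest run of bases in common between the whole probes of different cathelicidins was 12, between CATHL3 and SC5. That pair had 36 of 55 compared bases matching, and CATHL1B and CATHL3 had a common run of 11 with 36 of 60 bases matching. Whether these probes read one another's RNA was not tested. No other probe of the array had a run of 20 bases in common with a probe of the 5 genes. In the RefSeq gene table (assembly ARS-UI_Ramb_v3.0), CATHL3 and BAC5 are next to each other with 0 protein-coding genes between them, CATHL1B is separated from CATHL3 by 1, and LTF is on the same chromosome with 31 between it and BAC5. LYZ is on another chromosome.

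Signal was read over background. Median foreground intensity per array lay between 132 and 240 against a local background between 34 and 46, and 70.4% to 83.5% of the spots of an array were well above background by the scanner's own call. Arrays of one group correlated at 0.956 or more. Adipocyte transcripts were present in every group, and FABP4, the fatty acid carrier of fat cells, was well above background on every array with a lowest log2 intensity of 11.82. Of the neutrophil markers listed, which include MPO, ELANE, CSF3R and S100A8, 0 of 8 had a named probe on the array, so the number of neutrophils in a sample could not be judged from other genes. In whole tissue, fewer cells of a type and less RNA per cell cannot be told apart.

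All values below are normalized log2 intensities, so that 1 unit is a doubling, and differences between groups are differences of group means on that scale. A gene is represented by its brighter probe.

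LTF was the only one of the 5 genes that passed the test as higher in Control lambs than in Control fetuses, and its mean was lower in CORT lambs than in Control lambs. In the 8 Control fetuses LTF was between 6.73 and 7.98 with a median of 7.55 and a mean of 7.39 ± 0.48 (SD). The 6 CORT fetuses lay between 7.15 and 7.80 with a median of 7.73 and a mean of 7.63 ± 0.25. All 14 fetuses were below every lamb except CORT lamb 3, whose value of 7.31 fell inside the fetal range, and CORT lamb 1, whose value of 7.82 lay below the 2 brightest Control fetuses.

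In Control lambs LTF ran from 8.53 in lamb 1 to 9.48 in lamb 2 with a median of 8.99 and a mean of 9.03 ± 0.36 (n = 7). In CORT lambs it ran from 7.31 in lamb 3 to 8.70 in lamb 6 with a median of 8.14 and a mean of 8.13 ± 0.40 (n = 9). Only CORT lambs 6 and 8, at 8.70 and 8.55, were above the dimmest Control lamb, and 9 of 9 CORT lambs were below the Control mean. The LTF probe was well above background on all 30 arrays. From the highest, the order of the group means was Control lamb, CORT lamb, CORT fetus and Control fetus, and the last pair of neighbours did not differ beyond their spread.

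**Figure D1:**
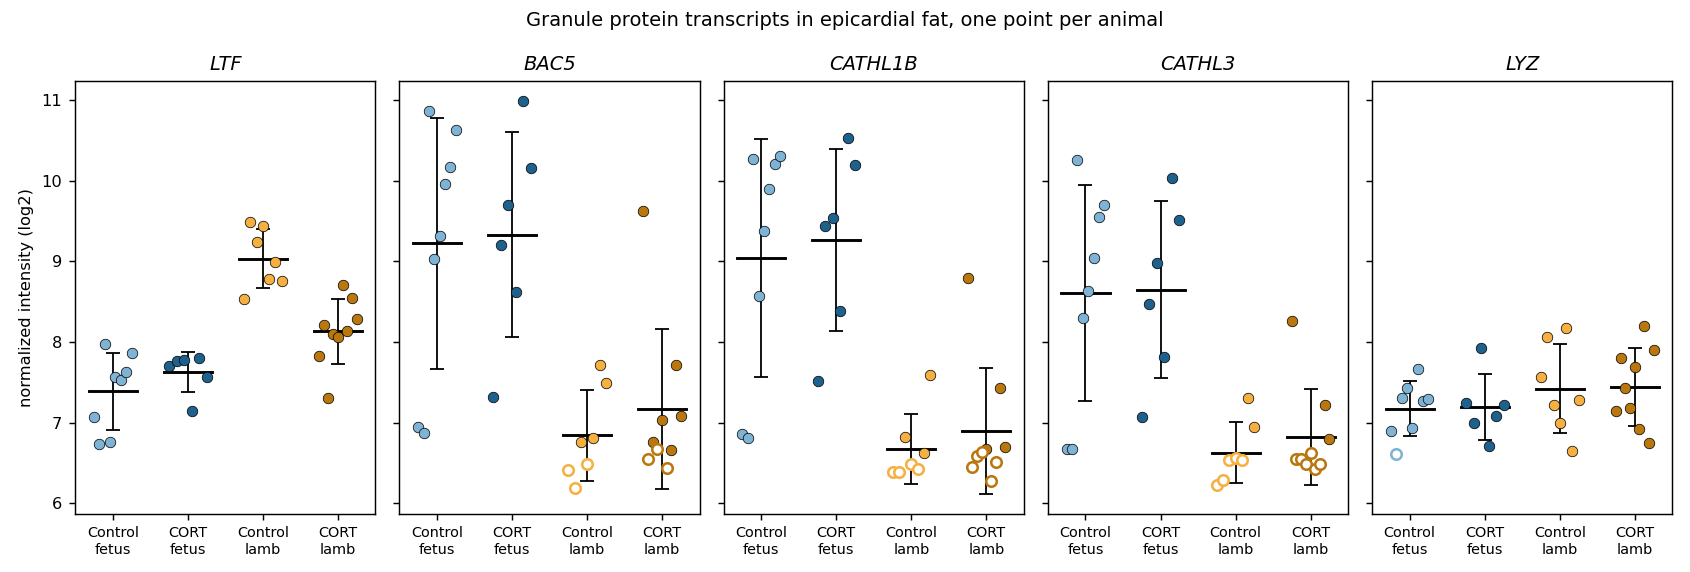
Normalized log2 intensity of LTF, BAC5, CATHL1B, CATHL3 and LYZ in each animal (points), with group means (horizontal bars) and SD (whiskers), for 8 Control fetuses, 6 CORT fetuses, 7 Control lambs and 9 CORT lambs; open points were not well above background. LTF means rise from 7.39 in Control fetuses to 9.03 in Control lambs while BAC5 means fall from 9.22 to 6.84, and LYZ means stay between 7.18 and 7.45.

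The first comparison asked what changed between term and 2 weeks of age without cortisol. LTF rose by 1.64 (SE 0.20), 3.12-fold, from Control fetuses to Control lambs (limma adjusted p = 9.2e-06), and the groups did not overlap. The exact permutation p (two-sided) was 0.000155, the smallest that 8 against 7 animals can give. This comparison called 41.7% of the 12838 tested probes, 20.3% higher and 21.3% lower in lambs, and in 7.4% the lambs were higher with no overlap. Of the 8 probes of the 5 genes, 1 was called higher, 5 were called lower and 2 were not called. The 5 that fell were all the cathelicidin probes and the 2 not called were those of LYZ. A call as such was thus common in this comparison, and the 5 genes differed among themselves in its direction.

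The cathelicidins fell steeply with age. BAC5, the precursor of a proline-rich peptide, averaged 9.22 ± 1.55 in Control fetuses and 6.84 ± 0.57 in Control lambs, and fell by 2.38 on the log2 scale (SE 0.56, limma adjusted p = 0.0028, exact permutation p = 0.0040). CATHL1B, the precursor of a cyclic dodecapeptide, went from 9.04 ± 1.47 to 6.68 ± 0.43, and fell by 2.36 on the log2 scale (SE 0.52, limma adjusted p = 0.0017, exact permutation p = 0.0034). CATHL3, the precursor of another proline-rich peptide, went from 8.60 ± 1.34 to 6.63 ± 0.38, and fell by 1.98 on the log2 scale (SE 0.48, limma adjusted p = 0.0032, exact permutation p = 0.0040). The second probes of BAC5 and CATHL1B each fell by 2.32 on the log2 scale. In all 7 Control lambs the 3 genes were below the mean of the Control fetuses, yet the groups overlapped because 2 fetuses were as dim as lambs.

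In lambs these transcripts were at the edge of detection. The scanner's call of well above background held for BAC5 in 4 of 7 Control and 6 of 9 CORT lambs, for CATHL1B in 3 of 7 and 4 of 9, and for CATHL3 in 2 of 7 and 3 of 9, against all 14 fetuses for each of them. Before normalization the BAC5 spot read 62.5 over a background of 44 in Control lamb 2 and 2117 over a background of 46 in Control fetus 8. The size of the fall moved with the treatment of background, since with the scanner software's own corrected signal the change was -4.17 for BAC5, -4.24 for CATHL1B and -4.36 for CATHL3. Age and slide were nested, since each slide held animals of 1 age. With slide as a random block the changes of LTF, BAC5, CATHL1B and CATHL3 were 1.63, -2.36, -2.35 and -1.96, with limma adjusted p from 6.5e-05 for LTF to 0.0115 for CATHL3.

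Some adipocyte transcripts also differed between these groups. Of 10 adipocyte markers 7 were measured, of which UCP1, the uncoupling protein of brown fat, changed by -4.19 (SE 0.35, limma adjusted p = 1.7e-07), LPL, lipoprotein lipase, by 1.81 (SE 0.19, limma adjusted p = 2.4e-06, with 7 of 8 Control fetuses, since 1 outlier spot was removed) and LEP, leptin, by 0.55 (SE 0.15, limma adjusted p = 0.0071). FABP4, PLIN1, PLIN2 and PPARG were not called, with changes of 0.44, 0.27, 0.13 and -0.42. Of the 7 markers 2 were thus called higher and 1 lower, in a comparison that called 41.7% of all tested probes. The summed linear intensity of the 7 markers lay between 50057 and 99492 in 7 Control fetuses and between 35393 and 92469 in Control lambs. The part of these adipocyte changes in those of LTF and the cathelicidins was not tested.

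LYZ took neither course. Its mean was 7.18 ± 0.34 in Control fetuses, 7.19 ± 0.41 in CORT fetuses, 7.42 ± 0.55 in Control lambs and 7.45 ± 0.48 in CORT lambs. The lowest and highest values of the 4 groups were 6.62 and 7.67, 6.71 and 7.93, 6.65 and 8.17, and 6.75 and 8.20. The ranges overlapped widely, and the highest values were those of lambs. The LYZ probe was dim, and before normalization it read 80.4 over a background of 46.5 in Control lamb 6. It was well above background in 7 of 8 Control fetuses and in every animal of the other groups. The difference between Control lambs and Control fetuses was 0.25 (SE 0.21, 95% interval -0.20 to 0.70, limma adjusted p = 0.38). The second LYZ probe gave 0.20 (SE 0.21).

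The second comparison asked what maternal cortisol had changed in lambs. LTF was lower in CORT lambs by 0.90 on the log2 scale, a change of -0.90 (SE 0.18, 95% interval -1.28 to -0.52), which is a 1.87-fold lower level. The exact permutation p was 0.00035 and the unadjusted limma p was 9.9e-05, the smallest of the 12838 probes tested, yet the limma adjusted p over all of them was 1.00. No probe passed the adjusted threshold here (0%), and 3.56% of the 12838 probes had an unadjusted p under 0.05, made up of 1.92% lower and 1.64% higher in CORT lambs. LTF was chosen with this change known, so its p-values carry that choice.

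Both lamb slides held both treatments, and on each the LTF values of the 2 groups did not overlap. Over both slides together they overlapped, and 0 of 12838 probes were lower in CORT lambs with no overlap. The share of all probes that separate within a slide was not counted. LTF was chosen with its lamb change known, so the slides are no separate test of it. On the first lamb slide the change of LTF was -1.31 (SE 0.25), with Control lambs at 8.53, 9.48, 9.24 and 9.43 and CORT lambs at 7.82, 8.21, 7.31 and 8.10. On the second it was -0.50 (SE 0.15), with Control lambs at 8.78, 8.99 and 8.76 and CORT lambs at 8.06, 8.70, 8.14, 8.55 and 8.28. Before normalization, median foreground was 132 to 166 on CORT and 158 to 188 on Control arrays of the first slide. On the second slide it was 165 to 235 on CORT and 150 to 161 on Control arrays. The part of array brightness in the LTF change was not tested. Leaving out any 1 lamb kept the change between -0.99 and -0.80. Of 6 endothelial markers 3 were measured, and all had a higher mean in CORT lambs, PECAM1 by 0.35 (SE 0.16), KDR by 0.33 (SE 0.16) and FLT1 by 0.16 (SE 0.068), with limma adjusted p = 1.00 and with 2 of the 3 at an unadjusted p under 0.05. Their summed linear intensity lay between 3547 and 7008 in Control lambs and between 5680 and 10222 in CORT lambs, and their part in the LTF change was not tested.

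None of the other genes moved detectably in CORT lambs. The cathelicidins were already at the edge of detection in Control lambs, so a fall in them like that of LTF could have gone unseen. The change of BAC5 was 0.33 (SE 0.38, 95% interval -0.47 to 1.13), that of CATHL1B 0.22 (SE 0.30, -0.41 to 0.85), that of CATHL3 0.19 (SE 0.23, -0.30 to 0.69) and that of LYZ 0.02 (SE 0.24, -0.47 to 0.52). The unadjusted limma p was over 0.05 for each of these probes, with adjusted p = 1.00. CORT lamb 1 was far above the others in all 3 cathelicidins, at 9.62 in BAC5, 8.80 in CATHL1B and 8.26 in CATHL3, while its LTF of 7.82 was the second lowest of the 9. Without it the changes of BAC5, CATHL1B and CATHL3 were 0.02, -0.02 and 0.01, and that of LTF was -0.86.

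**Figure D2:**
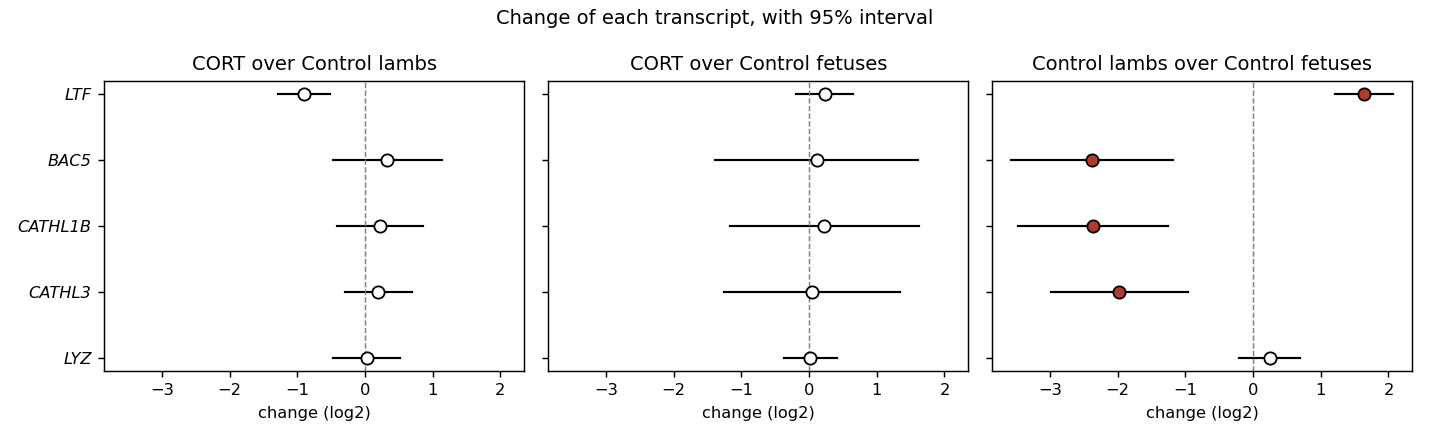
Change of each transcript on the log2 scale (points) with the 95% interval from limma (lines) in CORT over Control lambs (9 and 7 animals), CORT over Control fetuses (6 and 8) and Control lambs over Control fetuses (7 and 8); filled points passed an adjusted p of 0.05 over all tested probes. The filled points are LTF at 1.64 and BAC5, CATHL1B and CATHL3 at -2.38, -2.36 and -1.98, all between the ages, and the LTF interval in CORT lambs runs from -1.28 to -0.52.

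In fetuses, maternal cortisol at the higher dose moved none of the 5 genes detectably. The change was 0.23 for LTF (SE 0.20, 95% interval -0.19 to 0.66, exact permutation p = 0.29), 0.11 for BAC5 (SE 0.70), 0.23 for CATHL1B (SE 0.66), 0.04 for CATHL3 (SE 0.61) and 0.02 for LYZ (SE 0.18). The intervals of the cathelicidins were wide, from -1.39 to 1.61 for BAC5, and allow changes over 2-fold in either direction. No probe of the array passed the adjusted threshold (0%), and 2.37% had an unadjusted p under 0.05. Within slides the LTF change was 0.61 (SE 0.29) on one and -0.14 (SE 0.16) on the other, so its direction in fetuses was not settled.

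The cortisol effect on LTF in lambs less that in fetuses was -1.13 (SE 0.28, 95% interval -1.70 to -0.57). An exact permutation of the treatment labels within each age gave p = 0.0010, and limma's adjusted p was 1.00, as 0% of the probes passed and 0.974% were lower at an unadjusted p under 0.05. The lamb change of LTF, known when LTF was chosen, is part of this difference, so its p-values carry that choice. For the other 4 genes the same difference lay between -0.01 and 0.22, with SE from 0.32 to 0.81.

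Whether LTF and another gene changed by the same amount was tested directly on each animal's LTF value less its value of the other gene, in 12 exact permutation tests over 4 genes and 3 comparisons. Between the ages the LTF change exceeded that of BAC5 by 4.02, that of CATHL1B by 4.00, that of CATHL3 by 3.62 and that of LYZ by 1.39, with permutation p adjusted over the 12 tests between 0.00093 and 0.0014. Since most lamb arrays read the cathelicidins near background, these sizes moved with its treatment, and with the scanner software's corrected signal they were 6.58 for BAC5, 6.65 for CATHL1B, 6.76 for CATHL3 and 1.80 for LYZ, all of them past the threshold. LTF was 1.83 below BAC5 in the mean Control fetus and 2.19 above it in the mean Control lamb. These are differences of log2 signal between 2 probes and not of transcript number. For none of the cathelicidins did the groups overlap in LTF less the other gene. In LTF alone the groups did not overlap either, and 7.4% of all tested probes were higher in Control lambs with no overlap.

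In lambs the LTF change lay below that of BAC5 by 1.23, a difference of -1.23, and the values for CATHL1B, CATHL3 and LYZ were -1.12, -1.10 and -0.93, with permutation p adjusted over the 12 tests of 0.028, 0.020, 0.0067 and 0.036. The LTF change in lambs was known when LTF was chosen and enters all 4 tests, so their p-values carry that choice. The cathelicidins were at the edge of detection in lambs, so a fall in them like that of LTF could have gone unseen. The calls in lambs were also less firm than those between the ages. With the scanner software's corrected signal the 4 differences were larger, from -1.91 to -1.18, and none passed, with permutation p adjusted over the 12 tests from 0.14 to 0.22. Leaving out single lambs ended the call against BAC5 in 3 of 16 cases (Control lambs 2, 3 and 4, with differences of -1.18 to -1.05) and that against LYZ in 8 of 16 (Control lambs 3, 4 and 6 and CORT lambs 2, 3, 5, 7 and 9, with differences of -0.89 to -0.79). In fetuses the 4 differences were between 0.01 and 0.21 and none passed, with adjusted permutation p of 0.48 or more.

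The cathelicidins rose and fell together from animal to animal. In fetuses BAC5 spanned from 6.87 to 10.86 among Control animals, a 15.9-fold range, and its SD exceeded that of 99.8% of the tested probes. Control fetuses 1 and 2 were the dimmest in BAC5 (6.94 and 6.87), in CATHL1B (6.87 and 6.81) and in CATHL3 (6.67 and 6.67), at the level of most lambs. Control fetus 3 had the highest BAC5 and CATHL3 of its group (10.86 and 10.26), and its CATHL1B of 10.27 was next to the highest. Among CORT fetuses the dimmest was fetus 1 (7.32, 7.52 and 7.07) and the brightest fetus 5 (10.99, 10.53 and 10.04). All 3 dim fetuses lay on the first fetal slide, where BAC5 averaged 8.56 ± 1.54 against 9.98 ± 0.80 on the second.

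Pearson r between BAC5 and CATHL3 was 0.99 in Control fetuses, 0.99 in CORT fetuses, 0.95 in Control lambs and 0.99 in CORT lambs, the last carried in part by CORT lamb 1. Between CATHL1B and the others it was 0.98 or more in these groups, except in Control lambs, where it was 0.63 with BAC5 and 0.50 with CATHL3. These values come from 6 to 9 animals each, share arrays, and are given without a test.

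LTF followed the cathelicidins in Control fetuses. Over the 8 animals Pearson r with LTF was 0.84 for BAC5, 0.86 for CATHL1B and 0.86 for CATHL3 (exact permutation p = 0.012, 0.0086 and 0.0079), and 0.064 after adjustment over the 16 relations tested, which does not pass. Spearman rho was 0.95, 0.93 and 0.95, with exact permutation p adjusted over the 16 relations of 0.0091, 0.012 and 0.0091. Without the 2 animals farthest from the LTF median r was 0.95, 0.90 and 0.96, and without Control fetuses 1 and 2, a choice made after seeing the values, it was 0.87, 0.93 and 0.87. A span of 15.9-fold in BAC5 went with a span of 2.37-fold in LTF, both on the normalized scale. Control fetus 2, the dimmest in both, was near background. Before normalization it read 91.4 over a background of 43 for LTF and 106.6 over 47 for BAC5. Of the 8 animals 4 were on each fetal slide. LTF ran from 6.73 to 7.98 on the first and from 7.53 to 7.86 on the second. BAC5 ran from 6.87 to 10.86 and from 9.32 to 10.63, and 72.6% to 77.3% and 79.9% to 83.5% of spots were well above background. The permutation took no account of slide, and the part of slide or array depth in this relation was not tested.

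In the other groups the relation did not pass. In the 6 CORT fetuses r was 0.30, 0.38 and 0.37 with exact permutation p between 0.43 and 0.52. In Control lambs it was -0.35, -0.23 and -0.10, and in CORT lambs -0.20, -0.20 and -0.15, with exact permutation p from 0.42 to 0.84. Without 2 animals the CORT fetuses gave an r of 0.99 on 4 animals. LTF and LYZ gave r of 0.42 and 0.59 in Control and CORT fetuses and of -0.09 and -0.25 in Control and CORT lambs, with exact permutation p of 0.25 or more. In lambs the cathelicidins were at the edge of detection, which limits what a correlation with them can show. That the relation differs between ages was not tested.

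**Figure D3:**
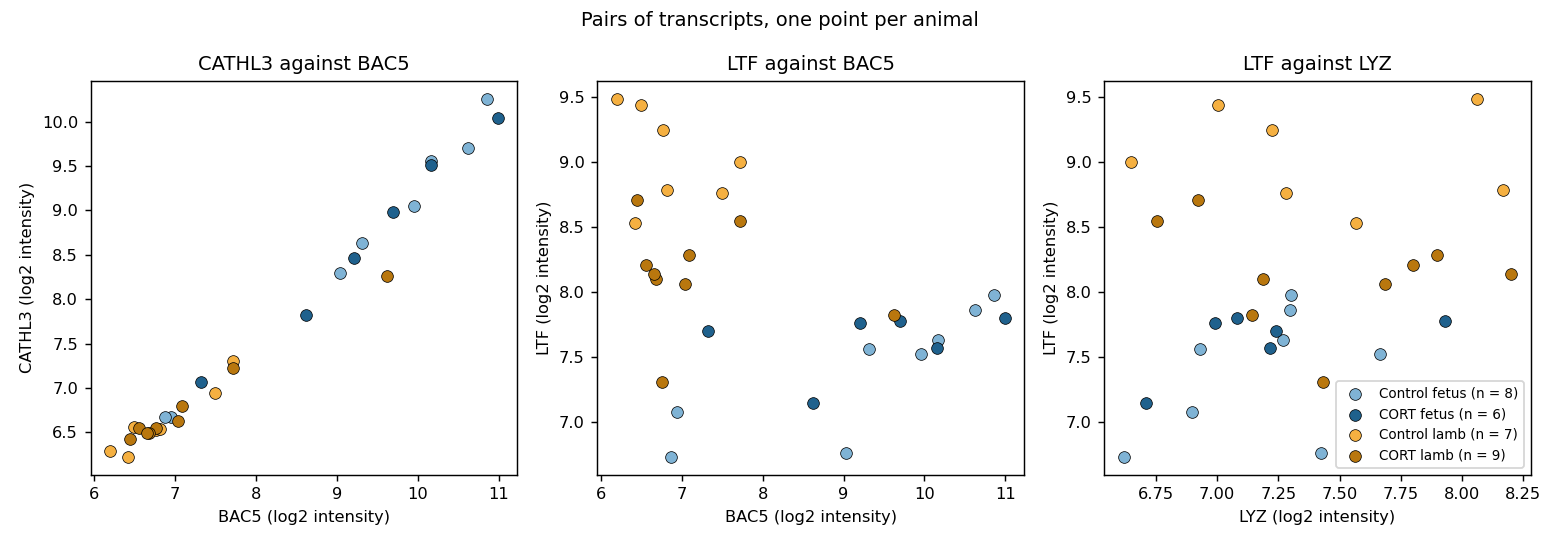
Normalized log2 intensities of CATHL3 against BAC5, LTF against BAC5 and LTF against LYZ, with 1 point per animal in 4 groups of 6 to 9. CATHL3 and BAC5 lie on one line (r of 0.95 to 0.99 within groups), LTF rises with BAC5 in Control fetuses (r = 0.84) and not in lambs (r of -0.35 and -0.20), and LTF and LYZ show no common line.

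To place these relations among all probes, each animal's group mean was subtracted and the remainders were correlated over the 30 animals, as a description with no test. Of 12771 other probes, CATHL3 took place 245 in likeness to LTF (r = 0.42), CATHL1B place 383 (r = 0.38), BAC5 place 750 (r = 0.32) and LYZ place 4744 (r = 0.06). Over the 14 fetuses alone the 3 cathelicidins took places 47, 41 and 73 (r of 0.73, 0.74 and 0.70). Over the 16 lambs alone they took places 8751, 9860 and 10313 (r of -0.13, -0.21 and -0.24).

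The named genes most like LTF over the 30 animals were FGF10 (r = 0.65), a growth factor made by mesenchymal cells, IGFBP4 (r = 0.60), a binding protein of insulin-like growth factors, IGF1 (r = 0.58), one of those growth factors, RILPL2 (r = 0.55) and SNRPA (r = 0.54), a spliceosomal protein. Like LTF, FGF10, IGFBP4, IGF1 and RILPL2 were called higher in Control lambs than in Control fetuses, by 0.59, 1.36, 1.21 and 0.58, with limma adjusted p from 5.4e-07 to 0.031. SNRPA was not called, with a change of -0.06. The comparison of ages called 20.3% of all tested probes higher, among them the genes most like LYZ given below. Between CORT and Control lambs the changes of these 5 genes were from -0.06 to 0.09, beside -0.90 for LTF, with limma adjusted p = 1.00 for all 6, and the difference between LTF and these genes was not tested.

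BAC5 had other neighbours. Behind the probes of CATHL3 and CATHL1B, SC5 was the named gene most like it (r = 0.94), and it also fell with age, from 7.96 ± 0.75 in Control fetuses to 6.85 ± 0.07 in Control lambs (change -1.11, SE 0.26, limma adjusted p = 0.0027). After a wide gap came PMCH (0.61), GRM5 (0.58), M6P/IGF2R (0.57) and SCNN1A (0.55), whose changes between the ages were from -0.10 to 0.04 and not called. PMCH, GRM5 and SCNN1A were near background, and were well above it in 1, 0 and 2 of 7 Control lambs. For LYZ, which was added to this search after its values had been seen, the nearest were CD86 (0.70) and CLEC7A (0.70), receptors of antigen-presenting and phagocytic cells, CTSS (0.68), a lysosomal protease, CYBB (0.66), a subunit of the phagocyte oxidase, and FLAP (0.65), which serves leukotriene synthesis. All 5 rose with age, by 0.70, 0.25, 1.00, 0.28 and 0.71, with limma adjusted p from 5.5e-05 to 0.013, in a comparison that called 20.3% of all probes higher. CLEC7A and CYBB were near background, and were well above it in 1 and 3 of 8 Control fetuses and in 4 and 6 of 7 Control lambs.

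**Figure D4:**
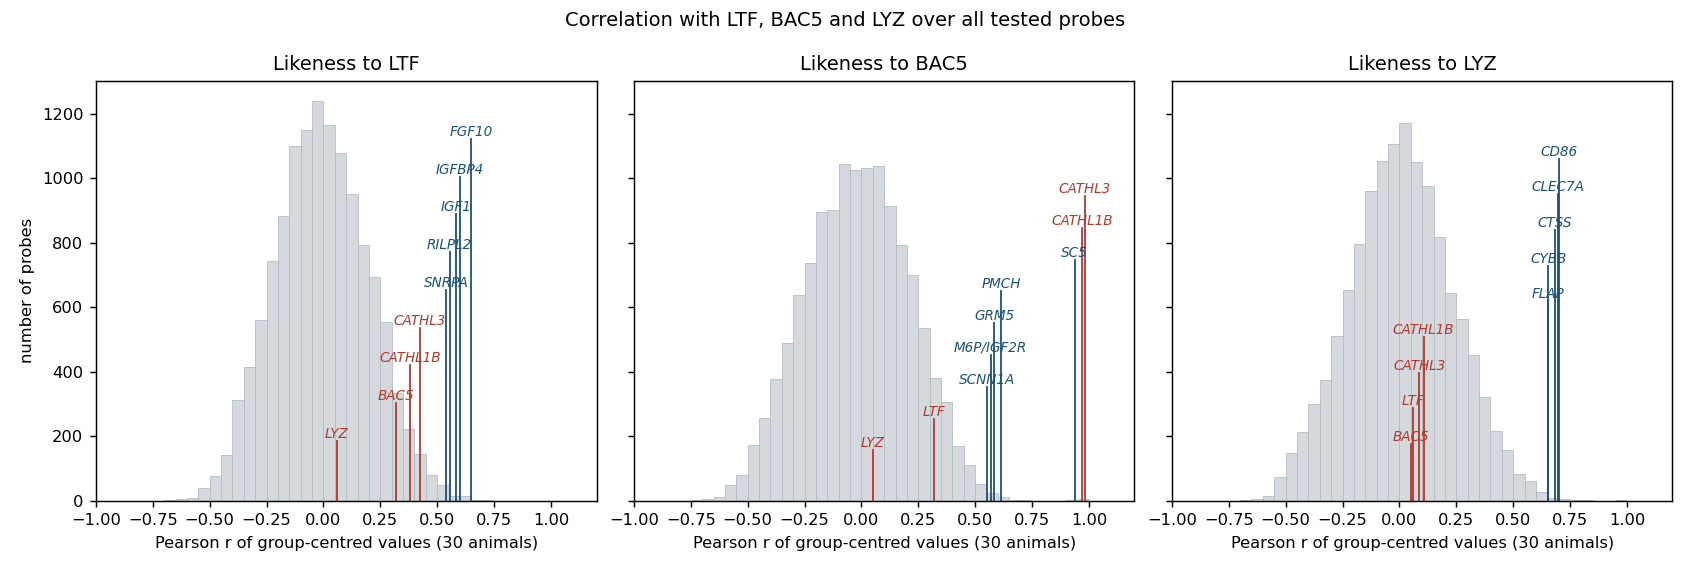
Number of probes at each Pearson r (bins of 0.05) with LTF, BAC5 and LYZ, from values of 30 animals less their group means, with the other members marked in red and the 5 most alike named genes in blue (heights of the marks carry no value). The cathelicidins sit at r of 0.32 to 0.42 from LTF and at 0.97 and 0.98 from BAC5, and LYZ sits at 0.06 and 0.05 from them.

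Other genes of neutrophils and of iron handling were taken from lists. Of 39 granule and cytoplasmic proteins of neutrophils, 7 were tested besides the 5 genes. Between the ages 3 rose, namely CHI3L1 (change 1.61, SE 0.37), a chitin-binding glycoprotein of neutrophil granules and macrophages, CTSS (1.00, SE 0.20) and CYBB (0.28, SE 0.08), and 1 fell, SC5, while CTSD, CYBA and SLPI, at 0.10, -0.25 and -0.16, were not called. These are 4 of 7 genes, against 41.7% of all tested probes, 20.3% higher and 21.3% lower. The median change of the list was 0.10, and that of all tested probes was -0.01. CHI3L1 averaged 10.09 ± 0.88 in Control fetuses, 10.75 ± 0.55 in CORT fetuses, 11.70 ± 0.65 in Control lambs and 11.13 ± 1.08 in CORT lambs. Its cortisol change was -0.57 in lambs (SE 0.42), beside -0.90 for LTF, and 0.66 in fetuses (SE 0.37), beside 0.23 for LTF. The difference between these changes was -1.23 (SE 0.59, limma adjusted p = 1.00), and CHI3L1 was the only one of the 7 with an unadjusted p under 0.05 there, against 0.974% of all probes lower at that level.

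Of 13 tested receptors and ligands of neutrophils and monocytes, 5 rose with age, led by C5aR (change 1.36, SE 0.15), the receptor of the complement fragment C5a, FCER1G (0.85, SE 0.09), an Fc receptor subunit, and ITGB2 (0.67, SE 0.16), the leukocyte integrin chain, with SELP (0.40) and CD14 (0.28). SELE, the endothelial selectin, fell by 0.41 on the log2 scale, and the other 7 were not called. A share of 6 of 13 is near the 41.7% of all tested probes called. The cortisol change of C5aR was -0.21 in lambs (SE 0.22) and 0.37 in fetuses (SE 0.14), and the difference of -0.58 (SE 0.28, limma adjusted p = 1.00) was the only one of the 13 with an unadjusted p under 0.05. Of 3 tested genes of iron handling, transferrin (TF), the plasma relative of LTF, rose by 1.67 (SE 0.16, limma adjusted p = 6.4e-07), close to the 1.64 of LTF, while FTH1 and SLC11A1 were at -0.09 and -0.14. In CORT lambs TF averaged 11.88 ± 0.22 against 11.81 ± 0.38 in Control lambs, a change of 0.07 (SE 0.14). In the cortisol comparisons none of the genes in these lists passed the adjusted threshold.

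Blood in the samples varied. The summed linear intensity of the 3 measured erythroid and marrow markers of 9 (HBB, AHSP and KIT) lay between 4538 and 55574 in Control fetuses, 2583 and 89578 in CORT fetuses, 2631 and 87076 in Control lambs, and 3543 and 37234 in CORT lambs. Of the dim fetuses, Control fetuses 1 and 2 and CORT fetus 1 were at 11630, 4538 and 2583, the last 2 of which were the lowest of their groups. Over the 14 fetuses r with BAC5 was 0.61 for HBB, the globin of adult blood, and over the 16 lambs it was 0.16. Of T cell markers 3 of 7 were measured, with sums from 313 to 1041 in Control fetuses and from 368 to 677 in Control lambs, and of macrophage markers CD14 alone. None of the erythroid and T cell markers passed the adjusted threshold between the Control groups, and the part of blood or of these cells in the results was not tested.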

How the data were processed

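Total RNA of epicardial adipose tissue from 30 sheep was labelled with Cy3 and hybridized to a 1-colour Agilent sheep array of 15744 spots on 4 slides. Per the file headers, each deposited scanner file gives for every spot a mean foreground intensity and a median local background intensity from Agilent Feature Extraction 10.1.1.1. The authors also deposited log2 values, background corrected and quantile normalized in limma per their methods. Only the lamb columns of these were used, as an alternative, since they followed the scanner values (Spearman rho of 0.9996 or more over 11828 probes).

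In R 4.3.3, limma 3.58.1 corrected the background (normexp, offset 50), outlier spots (3 to 17 per array) were removed, and the 30 arrays were quantile normalized together. Probes at least 10% brighter than the 95th percentile of 77 negative control spots on at least 6 arrays were tested, 12838 of 15008. Names came from the array's annotation and a RefSeq gene table (ARS-UI_Ramb_v3.0), for 1656 probes. The members, lists and tests were chosen with earlier results of these data known. Differences were tested with lmFit and eBayes, two-sided, over the compared groups alone, with Benjamini-Hochberg adjustment over all tested probes and a threshold of 0.05. Unadjusted p-values under 0.05, the level of the authors' methods, were counted too. Single values, differences from LTF and correlations had exact two-sided permutation tests (numpy 2.4.6). Of a gene's probes, the one with the highest mean over 30 arrays was used, and the genes named besides members were taken from the tested genes of the lists and were the 5 named genes most correlated with LTF and with BAC5, with those of LYZ added after its values were seen. The labels do not say whether samples come from separate ewes. The number of arrays limits the precision. The fits were tested on simulated data. Alternatives were the scanner software's processed signal, an offset of 10, cyclic loess, separate normalization, no filter, array weights, a joint fit, slide and replicate blocks, other probes and leaving out animals.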

Additional observations from a re-analysis of the deposited data

Results flagged for a closer look

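Animals far from the others of their group, by the gap to the nearest animal as a share of the group's range, were sought in 32 groups of values (8 probes in 4 groups), and 8 held one. Chance gives about 1 in 20. CORT lamb 1 had the highest cathelicidin values of its group, with gaps of 0.590 and 0.598 for the BAC5 probes at bases 562 and 563, 0.550 and 0.546 for the CATHL1B probes at 509 and 510, and 0.565 for CATHL3. In BAC5 it was at 9.62 and the next CORT lamb at 7.72. Control lamb 7 had the highest CATHL1B of its group, at 7.59 with the next lamb at 6.82, and gaps of 0.684 and 0.641 at the 2 probes. The lowest LTF among CORT fetuses was that of fetus 4, at 7.15 with the next at 7.57, a gap of 0.638. The probes of a gene overlap, and the cathelicidins moved together, so these are 3 animals and not 8 separate findings.

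The cortisol effect on LTF in lambs less that in fetuses was -1.13 (exact permutation p = 0.0010), while limma's adjusted p was 1.00. LTF was chosen with its lamb change known, so these p-values carry that choice. The ewes of the fetuses and of the lambs had been given different doses.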

How the results depend on the processing

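The rise of LTF and the fall of the cathelicidins with age kept their direction and call in every alternative run, leaving out single animals included: 1 member probe was called higher and 5 lower each time. LTF changed by 1.57 to 2.41 between the ages, by -1.31 to -0.50 in lambs and by -1.70 to -1.004 for lambs less fetuses, and the cortisol changes stayed short of the adjusted threshold, with the lowest adjusted p in lambs at 0.25. Without single animals these ranges were 1.55 to 1.73, -0.99 to -0.80 and -1.23 to -1.03, and the LTF change in fetuses was 0.14 to 0.33. Normalizing only the compared groups could not apply to the difference between ages, which uses all arrays.

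Excess of the LTF change over another's in lambs was short of the threshold with the processed signal (BAC5 -1.75, CATHL1B -1.73, CATHL3 -1.91, LYZ -1.18) and, for BAC5 (-1.50), CATHL1B (-1.33) and LYZ (-1.07), with an offset of 10. Without single lambs it was -1.39 to -0.89 for BAC5 and -1.09 to -0.79 for LYZ. In fetuses it was near 0 and turned sign, from -0.29 to 0.42 for BAC5, -0.36 to 0.27 for CATHL1B and -0.14 to 0.43 for CATHL3 without single fetuses, with -0.016 for CATHL1B on the processed signal. In Control fetuses the relation of LTF to BAC5, CATHL1B and CATHL3 passed after adjustment by rank (rho 0.95, 0.93 and 0.95) and, without the 2 animals farthest from the LTF median, for BAC5 (0.95) and CATHL3 (0.96). Without Control fetuses 1 and 2, a setting added after seeing the data, that with LYZ turned to -0.23. The cause of these shifts was not tested.

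Cortisol changes of the cathelicidins and LYZ, none past the threshold in any setting, turned sign as follows, with probes named by their first base. In fetuses, array weights gave -0.31 (BAC5 562), -0.32 (BAC5 563), -0.17 (CATHL1B 509), -0.18 (CATHL1B 510), -0.32 (CATHL3) and -0.023 (LYZ 367), and slide 2 alone gave -0.12, -0.093, -0.24, -0.24, -0.11 and -0.29 in that order, and -0.14 for LTF. Cyclic loess gave -0.13 and -0.10 (BAC5), -0.016 (CATHL1B 509), -0.17 (CATHL3) and 0.13 (LYZ 387). LYZ 387 also gave 0.060 with the processed signal and 0.35 on slide 1, against -0.00380 before, the value by which it turned that of LYZ 367 as its other probe. In lambs, slide 4 alone gave -0.32 and -0.35 (BAC5), -0.16 and -0.16 (CATHL1B) and -0.22 (CATHL3), slide 3 alone -0.073 and -0.086 (LYZ), array weights -0.13 and -0.076 (LYZ), and the processed signal -0.019 (LYZ 367). For lambs less fetuses, CATHL1B 510 gave 0.25 with array weights, 0.19 with cyclic loess, 0.010 with the processed signal, 0.00267 with slide as a block and 0.00392 by its other probe, CATHL1B 509 gave -0.029 with the processed signal, and LYZ gave -0.12 and -0.034 with array weights, -0.10 and -0.051 with cyclic loess and, for LYZ 367, -0.17 with the processed signal.

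Animals of different groups with the same replicate number did not deviate together throughout (correlations from -0.23 to 0.41), so the numbers do not pair them. With the number as a replicate block, the LTF change stayed within the ranges above, no call changed, CATHL1B 509 gave -0.014 for lambs less fetuses and LYZ 387 gave 2.2e-05 in fetuses. Signal over background limits what can be said of the cathelicidins in lambs, where most arrays read them near background.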
